A study of Mus musculus with 10 samples.

Results

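The 9 genes described here encode the transcription factors most often named as drivers of the epithelial-to-mesenchymal transition (EMT): Snai1, Snai2, Zeb1, Zeb2, Twist1, Twist2, Prrx1, Prrx2 and Tcf4. They were taken by symbol from the platform's gene table, with no use of their measured values, and 27 probe sets carried 1 of these symbols, of 45037 probe sets other than controls on the array. Zeb2 had 5 probe sets, Zeb1 had 4, Prrx1 and Tcf4 had 6 each, Snai2 had 2, and Snai1, Twist1, Twist2 and Prrx2 had 1 each. All 27 were kept, as no filter on low values was used. Of these, 23 had a mean over the arrays above the median of all probe sets, 5.05 on the log2 scale. Where a gene had several probe sets, the one with the highest mean over all arrays is called its leading probe set.

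EMT factors are repressors and activators that bind short DNA boxes. The Snail and ZEB zinc-finger proteins bind E-boxes in the genes of epithelial junctions, Cdh1 (E-cadherin) above all, and recruit corepressors to them. Twist proteins are basic helix-loop-helix factors that act on E-boxes as dimers, often with E proteins such as the product of Tcf4, and the Prrx proteins are paired-type homeodomain factors of embryonic mesenchyme. Fibroblasts express these genes as part of their mesenchymal state. Reprogramming of fibroblasts by Oct4, Sox2, Klf4 and c-Myc (OSKM) is known to pass through the reverse transition, in which epithelial genes come on early.

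The RNA came from mouse embryonic fibroblasts (MEFs) of a 129/SvJ x C57/B6 hybrid, called secondary and inducible in the labels, in which doxycycline turns on OSKM. Every group, the control included, consists of these inducible cells. The control was uninduced and kept for 96 h in starvation medium with 0.5% serum. The other groups received doxycycline, labelled as 2 ug/ul, in 15% serum for 96 h and were divided by how often the cells had divided on average, into cohorts of 0, 1, 2, and 3 or more divisions, the last called the 3+ cohort. Each of the 5 groups had 2 arrays. The labels do not say how the cohorts were separated. Sample titles call the arrays of the control and of the 3+ cohort biological replicates, while those of the other cohorts carry only a replicate number. Whether the arrays came from separate cultures is not stated. The p-values thus measure the spread between these samples, which may be technical in part. The control and the 3+ cohort differ in doxycycline, serum and division at once, and no sample was induced without the change of serum.

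The control and the 3+ cohort were registered together as an earlier set of 4 arrays, and the other 3 cohorts as a later set of 6. A comparison between these sets cannot be told apart from the set itself. The array medians of deposited intensity lay between 31.42 and 33.95, and replicate arrays correlated at 0.9863 to 0.9932 over probe sets. Replicate numbers were not neutral, because samples with the same number deviated together across groups. Values with the replicate number as a block in the fit are therefore given where they change a call. The 8 fibroblast markers checked were all measured above the median of all probe sets.

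Promoter windows on 1 chromosome were left out, and no window of Snai2, Zeb1 or Tcf4 was examined. For the other 6 of the 9 genes, 9 windows of the 250 bases before an annotated start were examined (RefSeq, GRCm38.p6). Those of Snai1, Twist1 and Twist2 are shown, 5′ to 3′ on the gene's strand, because these factors bind E-boxes and because both Twist genes passed the test below. Capitals mark a match to the E-box CANNTG, which reads the same on both strands in its fixed letters. The Snai1 window is chr2:167537945-167538194 on the plus strand, the Twist1 window chr12:33957421-33957670 on the plus strand, and the Twist2 window chr1:91801211-91801460 on the plus strand.
Snai1: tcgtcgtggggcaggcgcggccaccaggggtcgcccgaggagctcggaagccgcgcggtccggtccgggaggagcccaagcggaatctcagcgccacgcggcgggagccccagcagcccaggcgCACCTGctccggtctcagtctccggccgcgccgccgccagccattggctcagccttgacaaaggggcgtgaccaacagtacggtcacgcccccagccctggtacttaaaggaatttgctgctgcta
Twist1: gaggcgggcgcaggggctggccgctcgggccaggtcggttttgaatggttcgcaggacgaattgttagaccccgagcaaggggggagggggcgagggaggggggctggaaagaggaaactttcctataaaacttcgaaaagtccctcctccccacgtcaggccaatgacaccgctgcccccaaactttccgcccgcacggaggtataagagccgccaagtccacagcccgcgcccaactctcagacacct
Twist2: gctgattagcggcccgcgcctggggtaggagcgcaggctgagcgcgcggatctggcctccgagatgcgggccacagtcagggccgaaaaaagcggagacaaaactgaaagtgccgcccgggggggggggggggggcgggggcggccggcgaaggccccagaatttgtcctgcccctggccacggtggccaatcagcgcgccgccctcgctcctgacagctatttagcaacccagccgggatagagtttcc
The Snai1 window held 1 CANNTG match, CACCTG, with its first base at -126 from the start. CACCTG and its reverse complement CAGGTG are the form of E-box known for the Snail and ZEB zinc fingers, and each is also a CANNTG match. No CANNTG match was in the Twist1 or Twist2 window, nor in the windows of Zeb2, Prrx1 and Prrx2. Over 32851 RefSeq windows of the same length, 66.2% held CANNTG and 17.2% held CACCTG or CAGGTG. A match is only a run of letters here, and no binding was measured in these data.

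After 3 or more divisions under doxycycline, Snai2, Twist1, Zeb1 and Twist2 were lower than in the uninduced control. Snai2 fell 2.93-fold, Twist1 2.48-fold, Zeb1 1.61-fold and Twist2 1.55-fold by their leading probe sets. Snai1 missed the threshold narrowly, and Zeb2, Prrx1, Prrx2 and Tcf4 did not pass by their leading probe sets. None of the 27 probe sets rose. By limma with Benjamini-Hochberg adjustment over all probe sets, at an adjusted p under 0.05, 5 of the 27 probe sets (18.5%) were called, all lower. Of all 45037 probe sets 20.7% were called in this comparison, and 9.38% were called lower. By leading probe sets 4 of the 9 genes were called lower, against 10.9% of 18193 genes. The median change of the 27 was -0.42 on the log2 scale, with a range from -1.55 to 0.49, against 0 for all probe sets, and 22 of the 27 lay below 0.

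On 13 of the 27 probe sets (48.1%) both arrays of 3 or more divisions lay below both control arrays, which was so for 28.5% of all probe sets. On 1 they lay above, and the share of all probe sets above was not counted. With the replicate block 14 of the 27 (51.9%) were called lower and 0 higher, against 14.3% of all probe sets called lower. The added 9 were those of Snai1, a pair of Zeb1, 1 of Prrx1 and 5 of Tcf4. Probe sets of 1 gene are not independent. By leading probe sets the block called 6 of the 9 genes lower, against 16.3% of 18193 genes. Without the block, fewer of the 27 were called when any 1 array of the control or of the 3+ cohort was left out. Fewer of all probe sets were called then too.

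**Figure D1:**
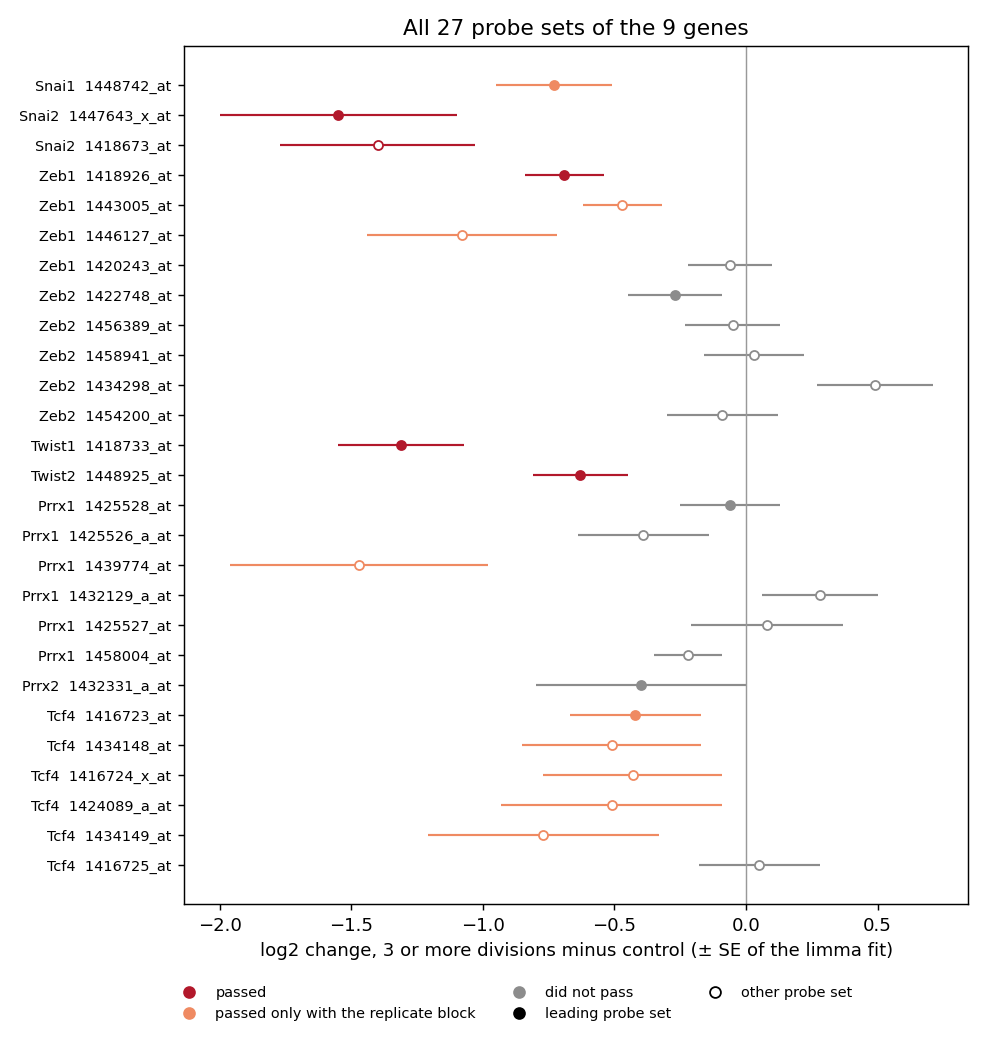
Change of each of the 27 probe sets after 3 or more divisions, as the log2 difference from the control on the horizontal axis, with bars of 1 standard error of the limma fit over 10 arrays. Filled points are leading probe sets and open points the others; dark red passed (5), orange passed only with the replicate block (9) and grey did not pass, and the points run from -1.55 for Snai2 to 0.49 for a probe set of Zeb2.

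Snail family. Snai2, which encodes Slug, gave the largest fall of the 27 probe sets. Its leading probe set 1447643_x_at read 12.35 and 11.38 on the control arrays, in log2 intensity for replicates 1 and 2, then 11.75 and 11.13 after 0 divisions, 12.05 and 10.79 after 1, 11.53 and 11.36 after 2, and 10.53 and 10.10 after 3 or more. The 2 arrays of 3 or more divisions were the lowest of the 10, and the other 4 groups overlapped one another. The log2 change from the control was -1.55 ± 0.45 (SE of the limma fit, n = 2 per group, adjusted p = 0.0428). The other probe set, 1418673_at, read 9.94 and 9.05 in the control and 8.23 and 7.96 after 3 or more divisions, with 8.60 to 9.65 in the cohorts between. It gave -1.40 ± 0.37 (adjusted p = 0.0307), so both probe sets of the gene were called. Replicate 1 stood above replicate 2 in all 5 groups on the leading probe set and with the block its adjusted p was 9.54e-04. Without the block that call was lost without any 1 of the arrays of the 3+ cohort, of 0 or of 2 divisions or replicate 1 of the control, with adjusted p from 0.0516 to 0.225.

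Snai1, whose protein turns over quickly and which is the family's founding repressor of Cdh1, had another course. Its probe set 1448742_at read 6.48 and 6.66 in the control, 5.93 and 5.98 after 0 divisions, 6.81 and 6.98 after 1, 6.40 and 7.15 after 2, and 5.88 and 5.81 after 3 or more. The cohorts of 0 and of 3 or more divisions were thus both below every other array, while 1 and 2 divisions lay near or above the control. The change after 3 or more divisions was -0.73 ± 0.22 (adjusted p = 0.0509), which did not pass, and passed with the replicate block (adjusted p = 0.0158). It was also past the threshold in the fit on the 4 arrays of this comparison alone (adjusted p = 0.0259) and without either array of 2 divisions (adjusted p = 0.00781). After 0 divisions the change was -0.62 ± 0.22 (adjusted p = 0.399), not past it.

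ZEB family. Zeb1 fell and Zeb2 did not pass. The leading probe set of Zeb1, 1418926_at, read 10.75 and 10.42 in the control, 10.31 and 10.26 after 0 divisions, 10.45 and 10.40 after 1, 10.18 and 10.47 after 2, and 9.98 and 9.81 after 3 or more. Both arrays of 3 or more divisions were below the other 8. The change was -0.69 ± 0.15 (limma adjusted p = 0.0148), and in the fit on only the 4 arrays compared its adjusted p was 0.0511. It was 0.0897 without replicate 1 of the control and 0.108 without replicate 2 of the 3+ cohort. Of its other probe sets 1446127_at changed by -1.08 (adjusted p = 0.069, with the block 0.0124) and 1443005_at by -0.47 (adjusted p = 0.0626, with the block 0.0462). The last, 1420243_at, was dim, between 3.12 and 3.42 on every array, and its change was -0.06.

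Zeb2 read 8.21 and 7.77 in the control on 1422748_at, 8.26 and 8.49 after 0 divisions, 8.22 and 8.11 after 1, 8.08 and 8.30 after 2, and 7.82 and 7.62 after 3 or more. The last cohort overlapped the control and lay below the other 3 cohorts. Its change from the control was -0.27 with a 95% interval from -0.67 to 0.13 (adjusted p = 0.35). The 5 probe sets of Zeb2 ranged from -0.27 to 0.49, none passed with or without the block, and 1434298_at, at 5.02 and 5.16 in the control and 5.47 and 5.68 after 3 or more divisions, was the one probe set of the 27 with both arrays above both controls (0.49 ± 0.22, adjusted p = 0.165). Whether the changes of Zeb1 and Zeb2 differ was not tested.

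Twist family. Twist1 gave the lowest adjusted p among the 27 probe sets. On 1418733_at it read 10.63 and 10.20 in the control, 10.40 and 9.85 after 0 divisions, 10.43 and 9.96 after 1, 10.40 and 10.44 after 2, and 9.27 and 8.94 after 3 or more. The 2 arrays of 3 or more divisions stood below the other 8, which all lay between 9.85 and 10.63. The change was -1.31 ± 0.24 (limma adjusted p = 0.00656). The call was lost without replicate 2 of the 3+ cohort (adjusted p = 0.0625).

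Twist2, also called Dermo1, differed from Twist1 in where the control lay. The control arrays read 9.58 and 9.72 on 1448925_at, and the induced cohorts 9.18 and 9.03 after 0 divisions, 9.39 and 9.07 after 1, 8.97 and 9.40 after 2, and 8.91 and 9.13 after 3 or more. Both control arrays were above all 8 induced arrays, and the 4 cohorts overlapped one another. The change after 3 or more divisions was -0.63 ± 0.18 (adjusted p = 0.042), and after 0 divisions -0.55 ± 0.18 (adjusted p = 0.36). The call after 3 or more divisions was lost without the quantile step (adjusted p = 0.0525), with median centring (adjusted p = 0.0871) and with a floor of 16 (adjusted p = 0.0843). It was also lost without any 1 of the arrays of the control, of 0 divisions or of the 3+ cohort, with adjusted p from 0.0603 to 0.191.

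**Figure D2:**
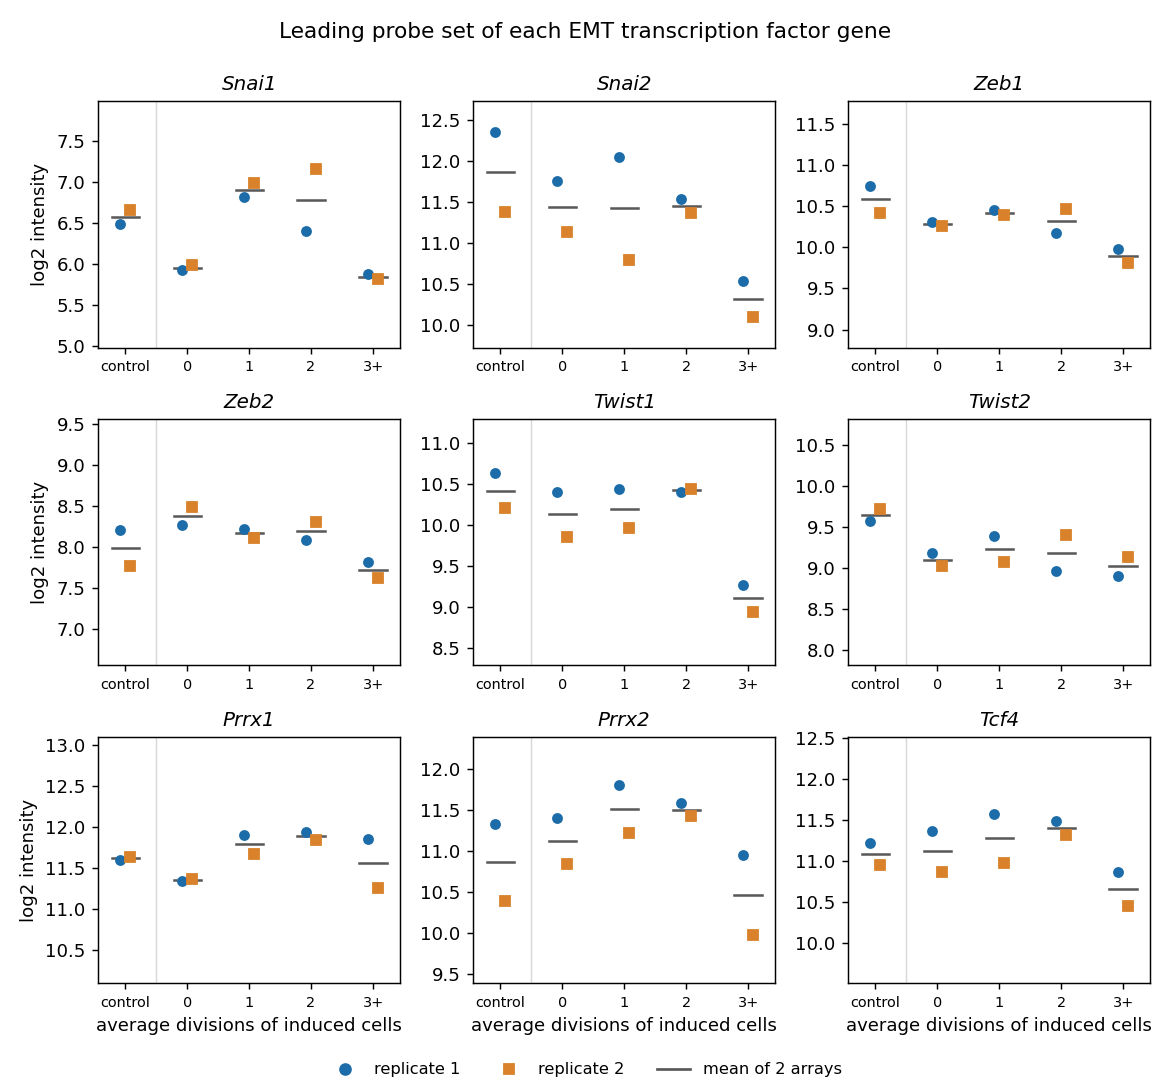
Log2 intensity of the leading probe set of each of the 9 genes on the 10 arrays, by group from the control through 0, 1, 2 and 3 or more divisions, 1 panel per gene with replicates 1 and 2 marked apart. The arrays of 3 or more divisions are the lowest of the 10 in the panels of Snai1, Snai2, Zeb1 and Twist1, the control is the highest in that of Twist2, and Prrx1 shows no such order.

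Prrx genes. The 6 probe sets of Prrx1, a homeodomain factor of limb and craniofacial mesenchyme, did not change alike. The leading probe set 1425528_at read 11.60 and 11.64 in the control, 11.35 and 11.37 after 0 divisions, 11.91 and 11.68 after 1, 11.94 and 11.84 after 2, and 11.86 and 11.26 after 3 or more. The arrays of 3 or more divisions thus spanned the control, and the change was -0.06 with a 95% interval from -0.49 to 0.38 (limma adjusted p = 0.882). In contrast 1439774_at read 10.26 and 9.64 in the control, 9.71 and 8.97 after 0 divisions, 10.04 and 8.96 after 1, 9.75 and 8.97 after 2, and 8.99 and 7.96 after 3 or more. Replicate 1 was the higher in each group, and within each replicate number the array of 3 or more divisions was the lowest. The change was -1.47 ± 0.49 (adjusted p = 0.0696), and with the block its adjusted p was 9.79e-05.

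Within each array, the difference of 1439774_at from 1425528_at was -1.34 and -2.0 in the control, -1.65 and -2.40 after 0 divisions, -1.87 and -2.72 after 1, -2.20 and -2.87 after 2, and -2.87 and -3.30 after 3 or more. The difference widened from group to group in this order within both replicate numbers, so the signals of one gene symbol did not keep a fixed ratio. The other 4 Prrx1 probe sets changed by -0.39 to 0.28, and none of them passed with or without the block. Which transcripts of Prrx1 each probe set reads was not examined.

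Prrx2, the paralog, read 11.33 and 10.39 in the control on 1432331_a_at, 11.40 and 10.84 after 0 divisions, 11.80 and 11.21 after 1, 11.58 and 11.42 after 2, and 10.95 and 9.97 after 3 or more. Within each replicate number the array of 3 or more divisions was the lowest, although the cohort overlapped the control. The change was -0.40 with a 95% interval from -1.33 to 0.53 (adjusted p = 0.566), and the block did not bring it past the threshold (adjusted p = 0.159).

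Tcf4, which encodes the E protein E2-2, a dimer partner of Twist proteins, gave a smaller shift on most of its probe sets. The leading one, 1416723_at, read 11.22 and 10.95 in the control, 11.36 and 10.87 after 0 divisions, 11.57 and 10.98 after 1, 11.49 and 11.31 after 2, and 10.87 and 10.45 after 3 or more. The 2 arrays of 3 or more divisions were below both arrays of the control and of 1 and 2 divisions, and overlapped those of 0 divisions. The change was -0.42 ± 0.25 (adjusted p = 0.295). Of the 6 probe sets 5 changed by -0.42 to -0.77, and all 5 passed only with the replicate block, where their adjusted p ran from 0.00401 to 0.0387. The other, 1416725_at, was dim, at 4.51 to 5.10, and its change was 0.05.

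**Figure D3:**
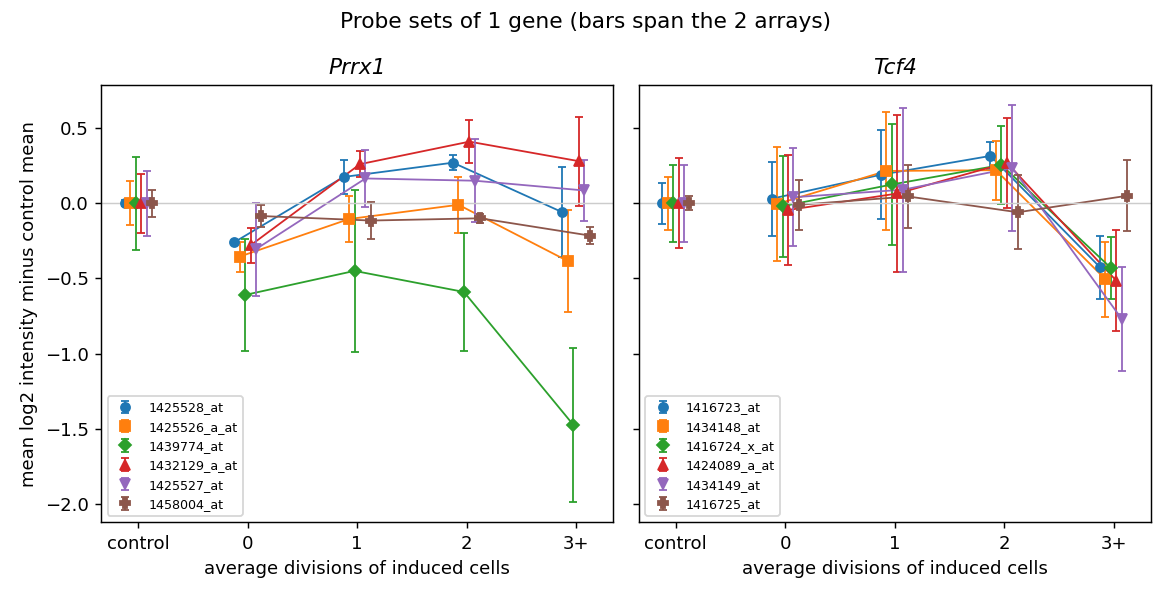
Mean log2 intensity of every probe set of Prrx1 (left) and Tcf4 (right) in the 5 groups, less that probe set's control mean, with bars from the lower to the higher of the 2 arrays and lines joining the induced cohorts. Prrx1 1439774_at reaches -1.47 after 3 or more divisions while the leading one is at -0.06, and 5 of the 6 Tcf4 probe sets share one course and end between -0.42 and -0.77.

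Across the 5 groups, the 3+ cohort had the lowest mean for 8 of the 9 leading probe sets, and for Prrx1 the cohort of 0 divisions did. For Snai1, Snai2, Zeb1, Twist1 and Tcf4 its 2 arrays did not overlap the group of the next higher mean. The share of all genes with this cohort lowest or apart was not counted. Nothing particular to the members is therefore read from these orders. In the order from high to low for Snai2 (control, 2, 0, 1, 3 or more divisions), Zeb1 (control, 1, 2, 0, 3 or more) and Twist1 (2, control, 1, 0, 3 or more), all other neighbours overlapped. For Tcf4 the order was 2, 1, 0, control and 3 or more, and for Snai1 it was 1, 2, control, 0 and 3 or more, where the control also stood apart from 0. The orders of Prrx2 (1, 2, 0, control, 3 or more) and Prrx1 (2, 1, control, 3 or more, 0) each held 1 gap between neighbours, above 0 divisions for Prrx2 and above the control for Prrx1. Zeb2 (0, 2, 1, control, 3 or more) had none.

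In the cohorts of 0, 1 and 2 divisions none of the 27 probe sets was called against the control by limma. At an unadjusted p under 0.05 there were 2 after 0 divisions, 3 after 1 and 2 after 2, with smallest adjusted p of 0.36, 0.333 and 0.112. Of all probe sets 0.122%, 0.673% and 4.15% were called in these comparisons, so few calls were made anywhere after 0 and 1 divisions. The medians of the 27 were -0.09, 0.09 and 0.15. With the block 1 was called lower after 2 divisions, Prrx1 1439774_at (-0.59, adjusted p = 0.0296), against 5.02% of all probe sets. These comparisons use the same control arrays as that of 3 or more divisions, and each crosses the registered sets.

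Within the later set, 2 against 0 divisions called none of the 27, with 3 at an unadjusted p under 0.05, and 0.0488% of all probe sets were called. Snai1 had the greatest of these differences, 0.83 ± 0.22 (limma adjusted p = 0.414), with 6.40 and 7.15 after 2 divisions against 5.93 and 5.98 after 0. The leading probe set of Prrx1 differed by 0.53 ± 0.19 (adjusted p = 0.602). Along the slope over 0, 1 and 2 divisions, fitted to 6 arrays, none of the 27 passed, 3 had an unadjusted p under 0.05, and 0% of all probe sets were called. Snai2, Twist1 and Zeb1, which were lower after 3 or more divisions, had slopes of 0.00, 0.15 and 0.02 per division over the preceding cohorts.

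The 3+ cohort was also compared with 0 and with 2 divisions, not with 1, and Twist1 was the member called in each without the block. Twist1 was lower than after 0 divisions by -1.02 ± 0.24 (limma adjusted p = 0.0377) and lower than after 2 by -1.32 ± 0.24 (adjusted p = 0.0376), with no overlap of arrays in either. All probe sets were called at 9.29% and 2.92% in these comparisons, against 3.7% of the 27 in each, so the share of members called was below the first and close to the second. With the block 10 of the 27 were called lower against 0 divisions, beside 8.86% of all probe sets. Beside Twist1 they held both probe sets of Snai2 (-1.13, adjusted p = 0.00957 for the leading one), Zeb2 1422748_at (-0.66, adjusted p = 0.0287), Prrx2 (-0.66, adjusted p = 0.0422), Prrx1 1439774_at and 4 of Tcf4. Against 2 divisions the block called 12 lower, beside 6% of all probe sets, Snai1 (-0.94, adjusted p = 0.0132) and Prrx2 (-1.04, adjusted p = 0.0102) among them. Both comparisons cross the registered sets and share the arrays of 3 or more divisions, so they are not separate evidence. The call of Twist1 against 0 divisions was lost without any 1 of the arrays of 0, 2 or 3 or more divisions. It was lost there on only the arrays compared as well. Against 2 divisions it was lost without any 1 of the arrays of the control or of 0, 2 or 3 or more divisions.

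Genes that act with or under these factors were read from lists, by leading probe sets, after 3 or more divisions. Of 22 epithelial target genes 7 rose and 0 fell, beside 15.1% of all genes called higher and 10.9% called lower, with a median of 0.36 against 0.02 for all genes. With the replicate block, which called 19.4% of all genes higher and 16.3% lower, 8 of the 22 were higher, Jup being added (0.64, adjusted p = 0.0238). Cdh1 read 3.22 and 3.52 in the control and 9.19 and 9.42 after 3 or more divisions (5.93 ± 0.39, limma adjusted p = 1.9e-04). Dsp, the desmosomal plakin, changed by 5.66 and Krt19, a simple-epithelial keratin, by 5.35. After 2 divisions, in the other registered set, Cdh1 was 2.69 higher than in the control (limma adjusted p = 0.0134), at 6.78 and 5.35. Without the block no member was called there, and with it Prrx1 1439774_at was called lower. Of 12 epithelial transcription and splicing factors 2 rose, beside 15.1% of all genes, and no difference from that share is read from them. They were Grhl3 (3.14) and Grhl1 (1.96), both grainyhead factors that keep epithelial gene programs on. The other 10 were not called, the grainyhead gene Grhl2 (-0.16) among them.

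Of 17 measured mesenchymal target genes 10 fell and 0 rose, with a median of -0.98, beside 10.9% of all genes called lower. With the block 14 were lower and 1 higher, against 16.3% and 19.4% of all genes. The added ones were Cdh2, Fn1, Acta2 and Tagln, lower, and S100a4, higher (0.77, adjusted p = 0.0198). Tnc, which encodes tenascin C, changed by -2.85, Postn, which encodes periostin, by -2.08 and Fap, a fibroblast surface protease, by -2.0. Cdh2, N-cadherin, changed by -0.71 (adjusted p = 0.0659, with the block 0.00431). Vim, the intermediate filament of mesenchymal cells, had 14.28 and 14.20 in the control and 14.34 and 14.27 after 3 or more divisions (0.07, adjusted p = 0.721), near the highest value on the normalized scale, 14.64. Of 18 upstream signals 7 fell, beside 10.9% of all genes, among them Tgfb3 (-1.59), Smad3 (-0.90) and Fgfr1 (-0.83), and 1 rose, Smad4 (0.50). With the block 10 were lower, Jag1 (-1.74, adjusted p = 0.0692 without the block and 3.1e-04 with it), Tgfbr2 and Tgfbr3 being added. Of 13 other EMT-associated factors 3 fell, Foxc1 (-1.39), Tead1 (-1.09) and Sox4 (-0.76), and 0 rose.

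Of 14 corepressors 5 rose and 3 fell, beside 15.1% of all genes called higher and 10.9% called lower. Ezh2, the methyltransferase of Polycomb complex PRC2, rose by 1.81, Smarca4, the BRG1 ATPase, by 1.15 and Kdm1a, the LSD1 demethylase that Snail proteins recruit, by 0.82. The next 3 lists had 1 or 2 calls each, and no difference from these shares is read from them. Of 12 genes for turnover and phosphorylation of Snail and Twist proteins 2 fell, the kinases Lats2 (-1.23) and Prkd1 (-0.84), and 0 rose, with Mdm2 called higher only with the block (0.74, adjusted p = 0.0146). Of 6 E proteins and Id inhibitors 1 fell, Id4 (-2.07, adjusted p = 0.0216), and 0 rose, with Id1 called higher only with the block (0.43, adjusted p = 0.0387). Among 13 family relatives 1 rose, Msc (0.90), from a dim 3.89 and 4.20 to 4.77 and 5.13. Shox2, a homeodomain factor of limb mesenchyme, had the largest change of that list, -2.35, called lower only with the block (adjusted p = 0.139 without it and 5.18e-05 with it). Among the genes named by rule from the lists, Tnc, Tgfb3, Smad3, Fgfr1, Sox4, Id4 and Msc lost the call without replicate 2 of the 3+ cohort, and Tnc also without the quantile step and with median centring. The lists were not tested as sets.

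**Figure D4:**
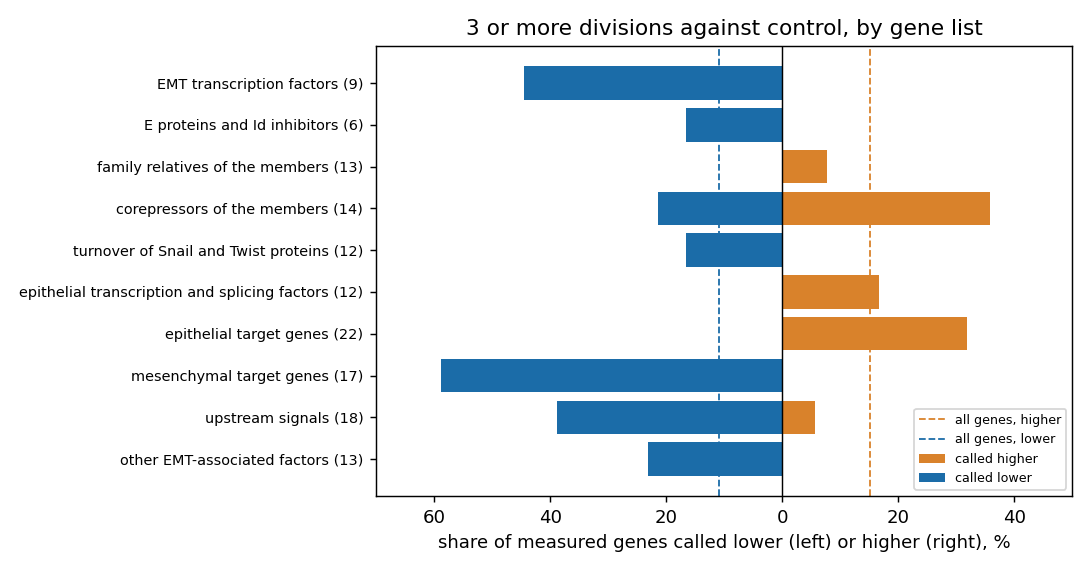
Share of measured genes called lower (left) and higher (right) after 3 or more divisions against the control, in percent, for the 9 EMT factors and 9 lists of related genes, with the number measured in brackets. The dashed lines are the shares of all 18193 genes, 10.9% lower and 15.1% higher; the bars of the EMT factors (4 of 9) and of the mesenchymal targets (10 of 17) reach farthest to the left.

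Markers of cell types moved in the same comparison. The summed intensity of 8 fibroblast markers was 97315 to 99571 in the control, 78180 to 80221 after 0 divisions and 58274 to 64149 after 3 or more. Of the 8, 4 were called lower, beside 10.9% of all genes, or 6 with the block, beside 16.3%. Of 5 keratinocyte markers 3 were called higher, Krt14, Krt16 and Krt6a, beside 15.1% of all genes. The sum of the 5 went from 155 to 172 in the control to 3512 to 3709 after 3 or more divisions. Krt5 and Trp63 in that list were not called. The sum of 5 measured neural crest and glial markers was 155 to 212 in the control and 554 to 669 after 3 or more divisions. Tubb3, which went from 4.62 and 6.5 to 8.64 and 9.14, and Gfap were called higher. Sox10 (0.08), Foxd3 (0.17) and S100b (-0.65) were not called. The 8 macrophage markers summed to 276 to 283 and 436 to 499, with Cd68 called higher, Lyz2 lower and Ptprc at 3.74 and 3.75 against 3.56 and 4.12. The 6 endothelial markers overlapped, at 269 to 667 and 406 to 470, with Tek called higher, Kdr and Flt1 lower, and Pecam1 and Cdh5 not called. On these bulk samples fewer cells of a type and less RNA per cell cannot be told apart.

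The 3′ minus 5′ difference of the control probe sets, a gauge of RNA integrity, was 0.26 and 0.26 for Actb in the control and 0.49 and 0.50 after 3 or more divisions, and 0.06 and 0.03 against 0.27 and 0.26 for Gapdh. The part of the markers and of this difference in the lower levels of the EMT factors was not tested. After 1 division Actb stood at 0.47 and 0.29 and Gapdh at 0.22 and 0.22. After 2 divisions Actb stood at 0.46 and 0.50 and Gapdh at 0.11 and 0.26.

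Over the 10 arrays, which share the groups, the replicate numbers and one normalization, the pair of members with the most alike course was Snai2 and Twist1 (Pearson r = 0.92), with the same r for Prrx2 and Tcf4, followed by Twist1 with Zeb1 and with Tcf4 (both 0.87). The lowest r were those of Twist2 with Prrx2 (-0.04), Zeb2 (-0.03) and Prrx1 (0.01). Among 11311 other genes above the median level, those closest to Snai2 were Boc (0.994), a Hedgehog coreceptor, and Pdp1 (0.99), a pyruvate dehydrogenase phosphatase. For Twist1 they were 4931406C07Rik (0.99) and Iqcb1 (0.989), for Zeb1 they were Ppib (0.97) and Zfp512 (0.967), and for Twist2 they were Slc49a4 (0.922) and Bicdl1 (0.915). Boc read 10.08 and 8.71 in the control and 7.41 and 6.75 after 3 or more divisions, with replicate 1 the higher in every group as for Snai2. These correlations are descriptions over 10 arrays and carry no test.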

How the data were processed

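Gene expression was measured on 10 Affymetrix mouse arrays of total RNA, 2 for each of 5 groups. The authors deposited 1 table of linear intensity for 45101 probe sets. RMA is named for the earlier 4 arrays, per the submitters' processing notes; no label names the tool for the other 6 or any joint normalization. The tests assumed log2 values, and the deposited values proved linear. They were floored at 1, which moved 0 values, turned into log2 and quantile normalized over the 10 arrays. Differences of dim probe sets may be compressed, which was not measured. No detection calls were used, and the number of arrays limits the precision.

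The 64 control probe sets were left out of the tests. Names came from the platform's gene table, and the symbols of all 27 probe sets matched RefSeq. With limma 3.58.1 in R 4.3.3 a model of 5 groups was fitted to 10 arrays (5 residual degrees of freedom), and the slope to 6 arrays (4). P-values were two-sided and Benjamini-Hochberg adjusted over 45037 probe sets, with a threshold of 0.05, in 8 comparisons. The scripts were tested on simulated data.

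Same-numbered samples deviated together in all 10 pairs of groups (r = 0.435 to 0.83), so the number was taken to pair the samples; this comes from the data and not from the labels. From each list up to 3 called genes of the greatest change after 3 or more divisions were named, with Cdh1 and Cdh2 always; Vim, Smad4, Shox2, the genes called only with the block and the other markers named without a rule were added after their values were seen. The 2 most alike genes were named for each member called. The 9 genes, the lists and the tests were chosen with earlier results of these data known. Alternatives were the floor, the quantile step, centring, 1 probe set per gene, dim probe sets, the block, a trended robust spread, only the arrays compared, and each array left out.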

Additional observations from a re-analysis of the deposited data

Results flagged for a closer look

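For Twist1 the change from the control differed between cohorts by a test of the difference itself, without the replicate block. Its change after 3 or more divisions lay below that after 0 divisions by -1.02 and below that after 2 divisions by -1.32 on the log2 scale, with limma adjusted p of 0.0377 and 0.0376. Twist1 was the 1 call of the 27 (3.7%) in each, beside 9.29% and 2.92% of all probe sets. With the block 10 of the 27 probe sets were called lower in the first comparison and 12 in the second, Twist1 included. This was beside 8.86% and 6% of all probe sets called lower. The first call was lost on only the arrays compared, and both were lost with a floor of 16. Both comparisons cross the registered sets, and they share the arrays of 3 or more divisions. Groups of 2 arrays were too small to look for single arrays far from the rest.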

How the results depend on the processing

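No called change of a member or named gene turned its direction under any alternative run. For 3 or more divisions against the control, the 5 member calls became 2 with a floor of 16 and 14 with the replicate block, and lay between 0 and 6 with 1 array left out. Without replicate 2 of the 3+ cohort the count was 0, without its replicate 1 it was 2, and without control replicate 1 it was 1. Against 0 divisions the 1 call became 0 with a floor of 16, 2 with 1 probe set per gene, 2 with dim probe sets left out and 10 with the replicate block, and lay between 0 and 2 with 1 array left out, 0 without any 1 of the arrays of 0, 2 or 3 or more divisions and 2 without either control. On only the arrays compared 1 probe set was called there, but not that of Twist1. Against 2 divisions the 1 call became 0 with a floor of 16, 12 with the replicate block and 3 on only the arrays compared, and lay between 0 and 1 with 1 array left out, 0 without either control, either array of 0 or of 3 or more divisions or replicate 2 of 2 divisions. Without replicate 1 of 2 divisions the 1 call was another probe set than that of Twist1. For 2 divisions against the control the replicate block gave 1 call, a lower one. Leaving out replicate 2 of 2 divisions, which left 1 array in that group, moved a member past the threshold as higher. No other array left out did so. The other 3 comparisons and the slope had 0 member calls under every alternative run. Calls over all probe sets shifted too. Against the control after 3 or more divisions they went from 9304 to 7555 with a floor of 16 and 13203 with the block. Against 0 divisions they went from 4184 to 2634 and 8300. Against 2 divisions they went from 1317 to 356 and 5561, and to 773 on only the arrays compared. With 1 array of a compared group left out, fewer probe sets were called in these comparisons as well. By gene after 3 or more divisions, Twist2 lost its call with a floor of 16 (adjusted p = 0.0843), as did both probe sets of Snai2 (0.126 and 0.0981), the leading one also with a trended robust spread (0.0632). In turn Snai1 gained one without the quantile step (0.0391), with median centring (0.0485), with 1 probe set per gene (0.0444) and with dim probe sets left out (0.038). Single values were followed for all 27 probe sets after 3 or more divisions against the control and for the 9 leading ones in the other 7 comparisons. Of 698 such values with all arrays kept or only those compared, 655 kept their side of the threshold and their direction, 10 lost a call, 26 gained one and 7 changed sign while not called. With 1 array left out, of 864 such values 35 lost a call, 9 gained one and 40 changed sign while not called. Of the named list genes' values 21 of 275 and, with 1 array left out, 54 of 350 lost a call. The cause of these shifts was not tested.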
